A study of Homo sapiens with 36 samples.

Results

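Chromatin occupancy after lentiviral expression of HA-GATA2(T354M) in GATA2-low HUDEP-2 cells was set against the same cells with the empty vector, in both cases with the GATA2 antibody. The members were the 4 libraries whose titles give GATA2-low cells with HA-GATA2(T354M) and the GATA2 antibody and the 4 whose titles give GATA2-low cells with the empty vector and that antibody. They are 8 of the 28 libraries that have a peak list, out of 36 described. HUDEP-2 is an immortalized human erythroid progenitor line, GATA2-low cells carry the genotype label GATA2+/-, and all cells were sorted for GFP after infection. Every group was grown with erythropoietin, stem cell factor, doxycycline and dexamethasone. The labels do not give the promoter of the vector or say whether the GATA2-low cells are 1 clone or several. Empty-vector replicate 1 carries the genotype label Wild-type, against its title (GATA2 low), and was kept in the group its title gives.

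GATA2 is a zinc finger transcription factor that binds GATA motifs, often beside the proteins TAL1, LYL1, LMO2 and LDB1, and keeps blood stem and progenitor cells, mast cells and basophils in being. During red cell maturation it gives way to GATA1, which binds many of the same motifs. T354M replaces a threonine by a methionine in the zinc finger that contacts DNA and is a germline change found in families with myelodysplastic syndrome and acute myeloid leukaemia. CUT&Tag brings a transposase to chromatin through an antibody and sequences the pieces of DNA that it cuts out. The GATA2 antibody recognises the remaining endogenous protein and the tagged protein alike, so the 2 sources cannot be told apart in these libraries, whereas the HA antibody recognises only the tagged one.

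Promoters from RefSeq (build GRCh38.p14, 250 bases before to 50 after an annotated start) show the kind of DNA at which peaks were called. Capitals mark matches, on either strand, to the motif AGATAA, to the variant AGATAG, to the variant TGATAA or to the variant TGATAG. The matches do not overlap one another in these promoters. The promoter of EPB42, which encodes the red cell membrane protein 4.2, lies at chr15:43220969-43221268 on the minus strand. The promoter of LYL1, a partner of GATA2, lies at chr19:13102809-13103108 on the minus strand. Both carried a summit in all 8 libraries. The promoter of ERAP2, a peptidase that trims peptides for antigen presentation, lies at chr5:96875734-96876033 on the plus strand, and that of C2orf66 at chr2:196809306-196809605 on the minus strand. These 2 carried a summit in 4 HA-T354M libraries and 0 with the empty vector.

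EPB42: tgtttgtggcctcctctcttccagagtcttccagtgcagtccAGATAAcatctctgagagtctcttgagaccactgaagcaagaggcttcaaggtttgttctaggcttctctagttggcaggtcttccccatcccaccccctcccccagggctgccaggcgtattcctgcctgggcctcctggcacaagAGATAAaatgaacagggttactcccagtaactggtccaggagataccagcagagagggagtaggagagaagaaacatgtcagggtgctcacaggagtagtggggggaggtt
LYL1: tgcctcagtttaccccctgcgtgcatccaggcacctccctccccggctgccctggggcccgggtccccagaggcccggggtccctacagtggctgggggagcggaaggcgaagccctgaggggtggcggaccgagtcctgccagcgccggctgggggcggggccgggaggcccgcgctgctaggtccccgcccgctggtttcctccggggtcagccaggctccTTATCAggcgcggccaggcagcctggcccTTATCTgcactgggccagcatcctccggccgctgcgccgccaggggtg
ERAP2: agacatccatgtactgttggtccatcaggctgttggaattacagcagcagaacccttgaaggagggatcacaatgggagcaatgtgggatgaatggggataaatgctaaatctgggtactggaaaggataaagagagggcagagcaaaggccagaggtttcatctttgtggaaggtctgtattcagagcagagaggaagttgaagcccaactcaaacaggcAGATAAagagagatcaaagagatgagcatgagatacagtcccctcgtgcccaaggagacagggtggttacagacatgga
C2orf66: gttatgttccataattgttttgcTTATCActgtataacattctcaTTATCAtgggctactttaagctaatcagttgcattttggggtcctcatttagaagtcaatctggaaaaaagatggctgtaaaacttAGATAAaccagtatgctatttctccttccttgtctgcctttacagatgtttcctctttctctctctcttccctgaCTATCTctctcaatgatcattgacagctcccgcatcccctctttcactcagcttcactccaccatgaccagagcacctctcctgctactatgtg

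The promoters were picked for holding a summit in this window, so its nearness to the start is part of the choice. At EPB42 they were 39, 45, 158 and 225 bp upstream of it in the HA-T354M libraries and 39, 47, 39 and 180 bp upstream in the empty-vector libraries. At LYL1 the summit was at the same base, 67 bp upstream, in 3 of the HA-T354M libraries and in all 4 empty-vector libraries. The fourth HA-T354M summit was 9 bp downstream. At ERAP2 the summits of the HA-T354M libraries were at bases 250, 283, 227 and 227 of the printed sequence, and its motif starts at base 222. At C2orf66 the HA-T354M summits were 189, 187, 187 and 103 bp upstream of the start. The ERAP2 site was without a peak in every wild-type library (0 of 4) and held in all 4 libraries of HA-GATA2 with the GATA2 antibody. The EPB42 and LYL1 sites were also held in 4 of 4 HA-T354M libraries with the HA antibody, and the ERAP2 and C2orf66 sites in 0 of 4. The ERAP2 and C2orf66 peaks were among the weaker ones of their lists and were kept in 1 and 2 of 4 HA-T354M libraries after thinning to a common depth.

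The motif was found in 24.9% of all 34961 promoters of the table, in 14 of the 30 promoters overlapped by sites seen only with HA-T354M (46.7%) and in 59 of the 135 overlapped by sites seen in all 8 libraries (43.7%). Among promoters overlapped by a site of a single HA-T354M library it was found in 14.6%. For sites in any of the 8 libraries the share was 22.3%. For sites in all 4 HA-T354M and 1 to 3 empty-vector libraries it was 32.8%, and for sites in 1 or 2 empty-vector libraries alone 24.7%. Of the sites seen only with HA-T354M, 87 kept this pattern after thinning and with lists of equal length, both described below. These 87 overlapped 0 promoters. A match is a description of these letters in this window, and several promoters of a gene can overlap. The table holds no promoter of chromosome 8.

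The number of peaks averaged higher with HA-T354M, but the difference did not pass the test. The HA-T354M libraries held 4643, 2779, 5587 and 6311 peaks on chromosomes 1 to 22 and X (4830 ± 1528, SD, n = 4), and the empty-vector libraries 1823, 1914, 2336 and 3648 (2430 ± 842). The groups overlapped, because HA-T354M replicate 2 held fewer peaks than empty-vector replicate 4. The ratio of geometric means was 1.98. An exact two-sided permutation test over the 70 labelled splits gave p = 0.0571, or 0.0914 after Benjamini-Hochberg adjustment over the 8 values tested in this way; the smallest p this design allows is 0.0286. After thinning to a common depth, described below, the ratio was 1.54 (exact permutation p = 0.143, adjusted 0.267). The labels name no separate cultures, so these p-values measure only the spread between libraries, which may be technical.

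**Figure D1:**
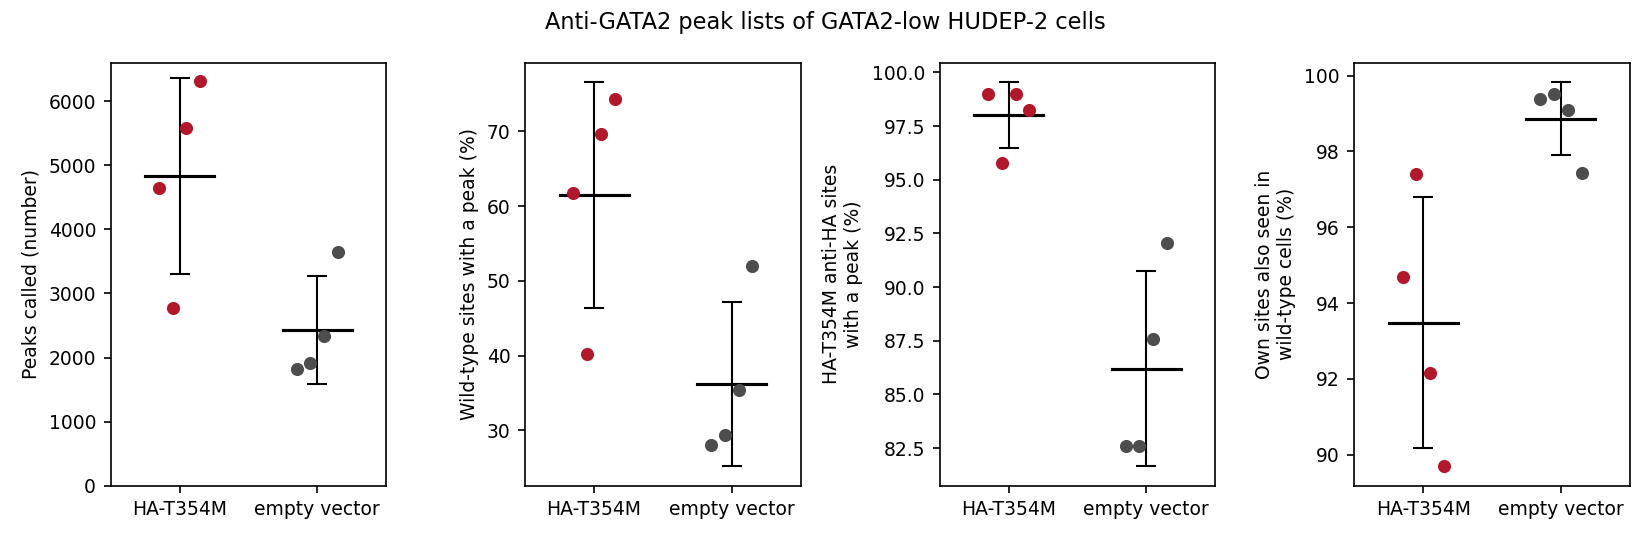
Values of each anti-GATA2 library (points) of GATA2-low cells with HA-T354M, left, and with the empty vector, right, with the mean and SD (n = 4 each): number of peaks, percent of wild-type sites held, percent of HA-T354M anti-HA sites held, and percent of a library's own sites that are also seen in wild-type cells; only the first axis starts at 0. The groups overlap in the first 2 panels and are separate in the last 2. For the anti-HA sites HA-T354M lies at 95.8% to 99.0% against 82.6% to 92.0%. In the last panel it lies at 89.7% to 97.41% against 97.44% to 99.5%, a narrow gap.

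Depth moved with the groups. The read totals are not in the lists, but the background that the peak caller used could be recovered from the deposited values. The lowest recovered background was 0.305, 0.294, 0.304 and 0.296 fragments per base in the HA-T354M libraries and 0.213, 0.168, 0.162 and 0.153 in the empty-vector libraries, with no overlap. The caller had scaled the HA-T354M libraries down by factors of 0.674, 0.5003, 0.663 and 0.706 and the empty-vector libraries not at all. Divided by this scaling, the background gave a depth estimate of 0.452, 0.587, 0.459 and 0.420 fragments per base for the HA-T354M libraries, while the empty-vector values stay as they are. The deepest HA-T354M library, replicate 2, held the fewest peaks of its group, and the shallowest empty-vector library, replicate 4, held the most of its group. Peaks on the mitochondrial sequence, left out above, numbered 0 in each HA-T354M library and 10, 6, 6 and 6 in the empty-vector libraries. The part of depth in the difference was examined by thinning every library to the lowest depth estimate and by cutting all lists to the 1823 strongest peaks, and both are given beside the results below.

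**Figure D2:**
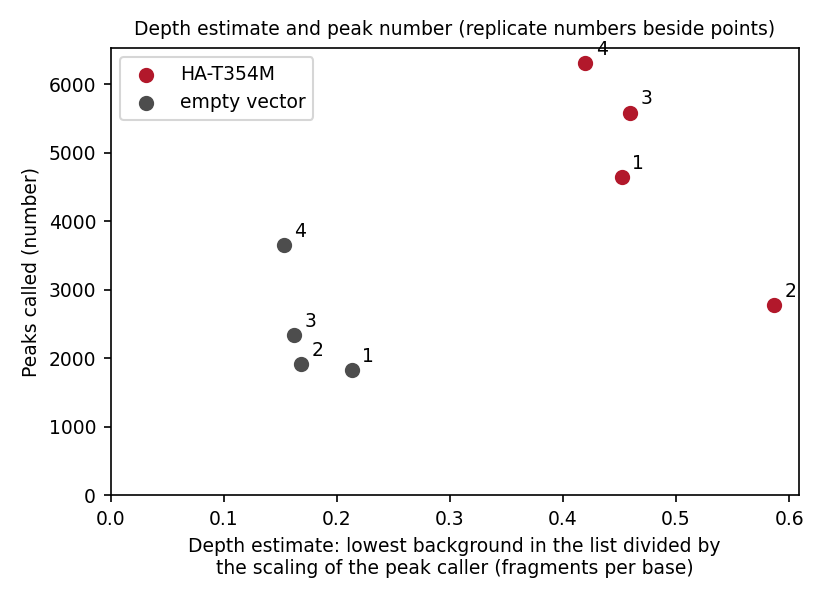
Number of peaks in each library against its depth estimate, the lowest background recovered from its list divided by the scaling of the peak caller (fragments per base), for HA-T354M and empty-vector anti-GATA2 libraries, with replicate numbers beside the points. The HA-T354M libraries lie at 0.420 to 0.587 and the empty-vector libraries at 0.153 to 0.213, while within each group the library with the highest estimate has the fewest peaks.

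Sites of wild-type cells were held at a higher mean share with HA-T354M, again without passing the test. Of the 6311 sites with a peak in at least 3 of 4 wild-type anti-GATA2 libraries, the HA-T354M libraries held 61.7%, 40.3%, 69.7% and 74.3%, and the empty-vector libraries 28.03%, 29.3%, 35.4% and 52.0%. The means were 61.5% ± 15.1 and 36.2% ± 11.03 (exact permutation p = 0.0571, adjusted 0.0914). After thinning the difference (HA-T354M minus empty vector) was 13.5 percentage points (exact permutation p = 0.200, adjusted 0.267). With lists of equal length it turned to -0.384 points, with the HA-T354M lists all below the empty-vector lists (exact permutation p = 0.0286, adjusted 0.0400). The wild-type libraries share none of the 8 libraries compared.

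Sites at which tagged T354M itself was seen were already held in most empty-vector libraries. Of the 402 sites in at least 3 of 4 HA-T354M libraries with the HA antibody, the HA-T354M anti-GATA2 libraries held 99.0%, 95.8%, 99.0% and 98.3% and the empty-vector libraries 82.6%, 82.6%, 87.6% and 92.0% (98.0% ± 1.53 and 86.2% ± 4.55). The groups did not overlap, and the exact permutation p was 0.0286, which became 0.0914 after adjustment. Of the 3406 sites of HA-GATA2 with the HA antibody, the HA-T354M libraries held 76.8% ± 11.2 and the empty-vector libraries 48.6% ± 9.58 (p = 0.0571, adjusted 0.0914, exact permutation test). After thinning the differences were 9.02 and 18.7 percentage points (exact permutation p = 0.0571 each, adjusted 0.152). With lists of equal length they were 6.90 and 3.81 percentage points, without overlap in either case (exact permutation p = 0.0286 each, adjusted 0.0400).

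The share of a library's sites that lay outside the wild-type repertoire was higher in every HA-T354M library than in any empty-vector library, though not past the threshold after adjustment. Of a library's own sites, 94.7%, 97.4%, 92.2% and 89.7% had a peak in at least 1 wild-type library with HA-T354M, against 99.4%, 99.5%, 99.1% and 97.4% with the empty vector. The means were 93.5% ± 3.31 and 98.9% ± 0.963, and the groups did not overlap (exact permutation p = 0.0286, adjusted 0.0914). The gap was narrow, with HA-T354M replicate 2 at 97.41% and empty-vector replicate 4 at 97.44%. Sites taken from 100 bp on either side of each summit gave an exact permutation p of 0.0571 (adjusted 0.0914). The lowest share was that of HA-T354M replicate 4, the longest list. The difference of -5.38 percentage points became -3.94 after thinning (exact permutation p = 0.0571, adjusted 0.152) and -0.482 with lists of equal length (p = 0.0286, adjusted 0.0400).

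Summits within 1000 bp of a gene end made up 14.99% ± 4.52 of the peaks with HA-T354M and 11.6% ± 1.52 with the empty vector (exact permutation p = 0.200, adjusted 0.229). Replicate 2 was the lowest of the HA-T354M libraries in this respect, and the difference turned to -0.217 percentage points after thinning and to -2.81 with lists of equal length. Within 1000 bp of an annotated start, counted after the data were seen and without chromosome 8, the share was 13.7% ± 4.52 and 10.03% ± 1.498. Summits inside genes made up 47.1% ± 1.86 and 48.9% ± 0.320 (p = 0.143, adjusted 0.190), and summits over 50 kb from any protein-coding gene 14.5% ± 1.41 and 15.5% ± 0.955 (p = 0.257, adjusted 0.257, both by the exact permutation test). For the summits over 50 kb away the difference turned to 0.504 percentage points after thinning and to 2.15 with lists of equal length, the second without overlap (exact permutation p = 0.0286, adjusted 0.0400).

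Peaks of all 28 libraries were merged into sites where they overlapped by at least 1 bp, and 7613 sites had a peak in at least 1 of the 8 libraries. At 447 of them (5.87%) a peak was called in 4 HA-T354M libraries and 0 with the empty vector, here called gained sites, and at 3 (0.0394%) the split was the other way. Another 1206 (15.8%) had a peak in all 8, here called constant sites. Fisher's exact test gave an unadjusted p of 0.0286 for each of the 450 sites with a complete split, and 0 passed after adjustment over all 7613 sites (smallest adjusted p = 0.483). A peak was 3 or more libraries more frequent with HA-T354M at 1468 sites (19.3%) and with the empty vector at 16 (0.210%). HA-T354M replicate 2 was the library without a peak at 621 of the sites held by just 3 HA-T354M and 0 empty-vector libraries, against 88 for the other 3 replicates together, and empty-vector replicate 4 was the only empty-vector library with a peak at 256 of 312 sites held in all 4 HA-T354M libraries. Without HA-T354M replicate 2 the number of complete splits was 1068, and without empty-vector replicate 4 it was 703.

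**Figure D3:**
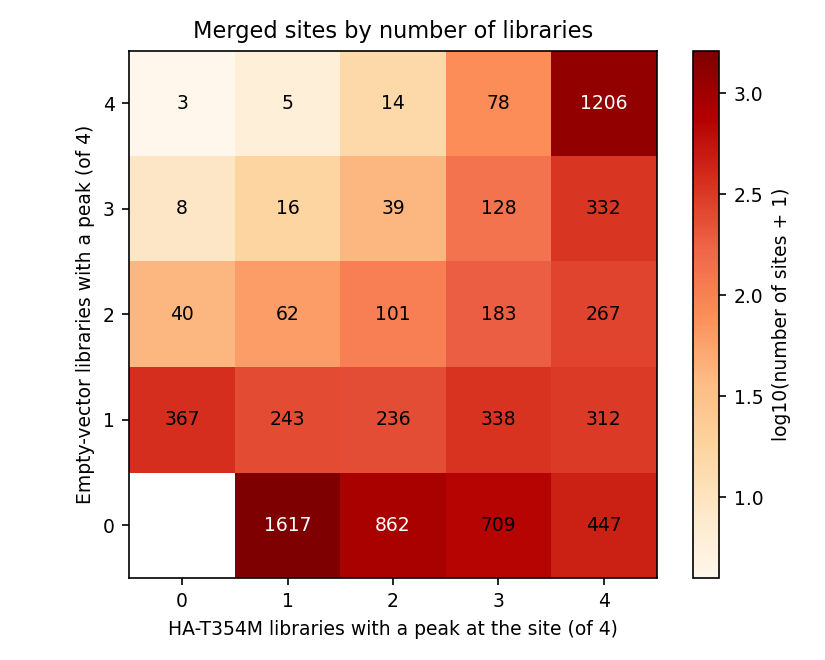
Number of merged sites by how many HA-T354M libraries (across) and empty-vector libraries (up) had a peak there; colour is log10 of the number plus 1. The lower right corner holds the 447 sites in all 4 HA-T354M and 0 empty-vector libraries and the upper right the 1206 sites in all 8. The upper left holds the 3 sites in all 4 empty-vector and 0 HA-T354M libraries.

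Of the 447 gained sites, 236 kept the complete split after thinning, 90 kept it with lists of equal length and 87 in both. Of the 1206 constant sites, 1006 and 889 stayed in all 8 lists. The gained sites were weaker in the HA-T354M lists than the constant sites. The median over sites of the mean percentile by -log10 q within a list was 52.3 for gained sites and 82.8 for constant sites, beside 38.1 for sites in any of the 8.

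By position, 4.47% of gained sites had their midpoint within 1000 bp of a gene end, 47.9% lay inside a gene and 20.8% lay over 50 kb from any. For constant sites the shares were 8.87%, 50.2% and 16.4%, and for sites in any of the 8 they were 19.5%, 45.1% and 13.5%. Of the 1617 sites of a single HA-T354M library 29.9% were at a gene end. Of the 407 sites of 1 or 2 empty-vector libraries alone, 21.9% were. Of the 87 gained sites kept under both alternatives, 1.15% were at a gene end and 31.0% over 50 kb from a gene. A constant site lay within 10 kb of 8.05% of the gained sites, close to the 7.19% of all sites.

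The libraries outside the comparison showed which of these sites other GATA2 also held. In libraries of HA-GATA2 with the GATA2 antibody a peak was at 97.5% ± 2.05 of the gained sites, and in wild-type cells at 74.4% ± 8.45, against 81.6% ± 7.84 and 74.1% ± 6.31 of sites in any of the 8. Gained sites were chosen for a peak in all 4 HA-T354M libraries, whereas sites in any of the 8 can rest on a single library. At the 911 sites in all 4 HA-T354M and 1 to 3 empty-vector libraries the shares were 98.6% ± 1.48 and 98.3% ± 1.31. In 422 of the 447 cases all 4 HA-GATA2 libraries had a peak, and in 258 all 4 wild-type libraries had one. At 50 gained sites no wild-type library had a peak, and 47 of these were in all 4 HA-GATA2 libraries. With the HA antibody, HA-T354M libraries had a peak at 7.998% ± 4.59 of the gained sites, against 31.8% ± 6.86 of the constant sites and 7.60% ± 2.14 of all. Of the 911 sites named above, 11.7% ± 4.72 had a peak. HA-GATA2 libraries with the HA antibody had one at 66.8% ± 20.5 of the gained and 88.8% ± 12.5 of the constant sites. The HA-T354M anti-HA lists were short, 595 ± 166 peaks, and at most gained sites no HA peak was called in them. The depth of these libraries was not estimated.

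**Figure D4:**
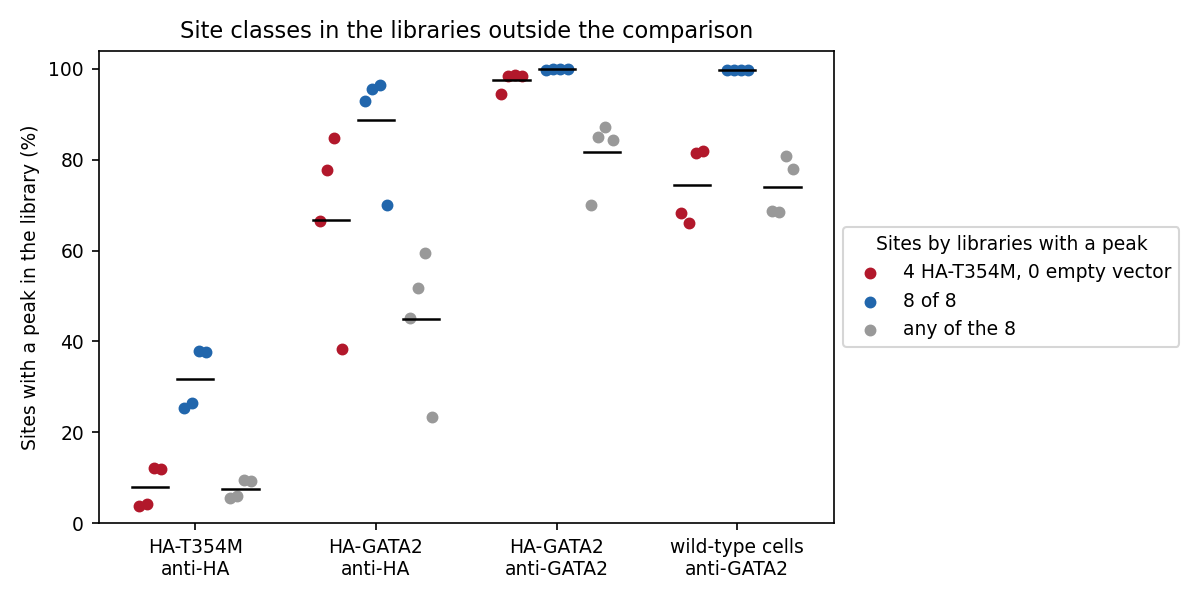
Percent of gained sites (red), constant sites (blue) and sites in any of the 8 libraries (grey) with a peak in each library (points, bar at the mean of 4) of 4 groups outside the comparison. Gained sites lie at 94.4% to 98.7% in HA-GATA2 libraries with the GATA2 antibody but at 3.80% to 12.1% in HA-T354M libraries with the HA antibody, where constant sites lie at 25.4% to 37.8%.

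A peak in all 4 HA-T354M libraries of the HA antibody was found at 9 of the gained sites and at 204 of the constant sites. The 9, named after their values were seen, were inside GATA2, CYB5R4 and TMCO4 and outside but nearest to SAMTOR, MAS1L, MLXIP, GRAP, KIAA2013 and ZDHHC20. The GRAP site, at chr17:19063363-19063799, also had a peak in 3 of 4 empty-vector libraries with the HA antibody, which carry no tag, and in 0 of 4 HA-GATA2 libraries with the GATA2 antibody.

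The strongest gained site lay inside GATA2 itself, at chr3:128485735-128487032. The authors' fold over the local background was 34.0, 30.4, 43.8 and 40.3 in the HA-T354M libraries, and no peak was called in any empty-vector library. The strongest summit of each HA-T354M library was at the same base, 128486118, and replicate 2 had a second peak in the site with its summit at 128486932. A peak was there in 4 of 4 HA-GATA2 libraries with the GATA2 antibody, in 4 of 4 HA-T354M libraries with the HA antibody and in 1 of 4 wild-type libraries, where the fold was 5.52. Peaks in 7 libraries, 3 of HA-T354M and 4 of HA-GATA2, began at the same base, 128485754, and in 6 libraries a peak ended at 128487032. The vectors of those cells carry GATA2 coding sequence, so fragments from the vector and from the chromosome cannot be told apart here, and the site stands as a value only. Over the GATA2 gene body and 10 kb on either side, the lists held 4 summits in each HA-T354M library and 2 in each empty-vector library. These counts include this site, which holds 2 of the 4 summits of HA-T354M replicate 2. They are therefore not a count apart from possible vector fragments.

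Among the other gained sites, the one with the highest mean percentile, 91.6, lay 81756 bp from RREB1, a zinc finger transcription factor, at chr6:7025558-7026416. The fold there was 30.7, 28.6, 39.9 and 42.7. The next 3 lay near CA8 and C2CD5 and inside DOK6. The C2CD5 site at chr12:22554603-22555279, 10399 bp from the gene, had folds of 23.5, 26.3, 34.8 and 40.5 and a peak in 3 of 4 HA-T354M libraries with the HA antibody. The RREB1, CA8 and DOK6 sites had a peak in 0 of these 4. The sites near EED, TNFAIP3 and MYC, given next, had a peak in 1 of 4. EED is a core subunit of the Polycomb repressive complex, and the site lay 71680 bp from it. TNFAIP3 encodes the ubiquitin-editing enzyme A20, a brake on NF-kB, and the site at chr6:137851089-137851833 lay 14888 bp from it, with folds of 27.1, 20.7, 31.0 and 40.7. MYC, the growth regulator, was the nearest gene to a site 245586 bp away, with folds of 22.9, 19.7, 31.6 and 36.2.

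Further sites of the 20 strongest lay inside TPMT, the enzyme that inactivates thiopurine drugs, inside the deubiquitinase gene USP47, and inside CNRIP1, MTSS1, EXT1, CRYZ, APPL2, EGF, HSF2 and CACNA1D. Another 2 were nearest to LPIN1, 246932 bp away, and to SAMTOR, 65433 bp away. HSF2 encodes a heat shock transcription factor and CACNA1D a calcium channel subunit. Each of these 20 sites kept the complete split after thinning and with lists of equal length, and each was held in 4 of 4 HA-GATA2 libraries with the GATA2 antibody. In wild-type cells 14 of them were held in 4 of 4 libraries.

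The 3 sites seen only with the empty vector were weak. They lay inside FBXO28, a ubiquitin ligase subunit, inside HPSE2, and 1056787 bp from CNTN5. At FBXO28 (chr1:224160165-224160616) the fold in the empty-vector libraries was 6.13, 7.41, 8.75 and 9.54, and the mean percentile was 10.8. With lists of equal length 1, 1 and 3 of the 4 empty-vector lists still held these sites. All 3 were held in at least 3 of 4 wild-type libraries.

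The strongest constant sites were occupied at the top of every list. The 10 with the highest mean percentile included a site inside ZFPM2, which encodes the GATA cofactor FOG2, and sites outside genes, nearest to CIBAR1, UTRN, PRKAB1, ODF1, OR10V1, HMCN1, PDZK1IP1 and COX7C. At the site 33827 bp from UTRN the fold was 74.8, 64.4, 86.9 and 95.7 with HA-T354M and 67.1, 55.0, 68.0 and 73.9 with the empty vector. Folds come from lists of different depth and scaling and are not compared between groups. The PDZK1IP1 site, at chr1:47180225-47182847, is in the neighbourhood of TAL1. Of the 10, 9 were held in 4 of 4 HA-T354M libraries with the HA antibody, and the UTRN site in 3 of 4.

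Ranks among the 1206 constant sites were compared after the data were seen, and use the same sites in every list. At 142 sites (11.8%) all 4 HA-T354M libraries placed the site nearer the top by -log10 q than any empty-vector library, and at 158 (13.1%) all 4 placed it further down. Ranked by fold the numbers were 154 and 182, of which 117 and 120 were shared with the ranks by q. The site inside C9orf153 (chr9:86230672-86231441) had ranks of 196, 178, 126 and 135 with HA-T354M and 1094, 954, 870 and 1078 with the empty vector. A site inside MTSS1, which also holds a gained site, had ranks of 127, 89, 118 and 130 with HA-T354M and 1120, 982, 484 and 512 with the empty vector. The sites nearest to CCDC59, MOCS2, TTLL11, TMEM245 and BCKDHB also stood nearer the top with HA-T354M. In the other direction, the site inside GPLD1 (chr6:24451553-24452248) had ranks of 776, 880.5, 877.5 and 871.5 with HA-T354M and 349, 245, 268.5 and 361.5 with the empty vector. NINJ2 had 762, 903, 772 and 671 with HA-T354M and 291, 278, 292 and 305 with the empty vector, and sites at ADORA2B, TIAM2, APEH, PIWIL3, ERAL1 and TNRC6B stood alike. Rank comparisons had no test of their own.

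Around protein-coding genes, a summit in the body or within 10 kb was counted as a peak at the gene. Of 19970 genes, 4917 had one in any of the 8 libraries. The number of genes was 3288, 1820, 3755 and 3964 with HA-T354M and 1329, 1376, 1646 and 2504 with the empty vector. The complete split was found at 211 genes (4.29%) towards HA-T354M and at 1 (0.0203%), FBXO28, towards the empty vector. By Fisher's exact test 0 genes passed after adjustment over all 4917 (smallest adjusted p = 0.663, and 212 at an unadjusted p below 0.05). As for the sites, a gene could pass only if most of the 4917 were completely split. A difference of 3 or more libraries was found at 927 genes (18.9%) towards HA-T354M and at 11 (0.224%) towards the empty vector, and 932 (19.0%) had a peak in all 8. A peak was in more HA-T354M than empty-vector libraries at 3332 genes (67.8%) and the other way at 349.

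**Figure D5:**
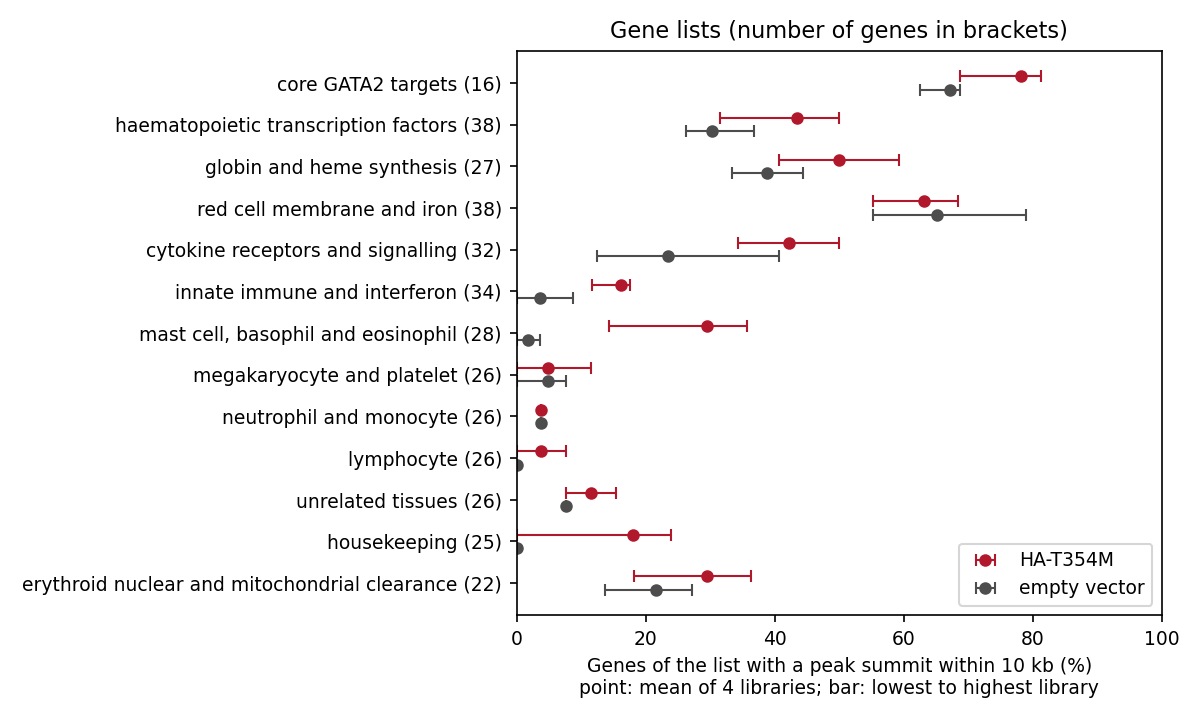
Percent of the genes of each list with a peak summit in the body or within 10 kb, for HA-T354M (upper point of each pair) and empty-vector libraries (lower point); points are means of 4 libraries and bars run from the lowest to the highest library. The red cell membrane and iron list lies at 55.3% to 68.4% and 55.3% to 78.9%, and the mast cell, basophil and eosinophil list at 14.3% to 35.7% and 0% to 3.57%.

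Of the 16 core GATA2 target genes, 10 had a peak in all 8 libraries and 14 in any. These were HDC, which makes histamine, GATA2, GATA1, ZFPM1 (FOG1, the GATA1 cofactor), LYL1, TAL1, LMO2, GFI1B, MYB and RUNX1. Only KIT, the receptor for stem cell factor, differed by 3 libraries or more, beside 18.9% of all genes with a peak. It had a peak in 4 HA-T354M libraries and 0 with the empty vector. Its site, inside the gene at chr4:54667899-54668382, had folds of 11.3, 7.25, 7.13 and 10.9 and a low place in the lists, and 1 of 4 HA-T354M libraries kept it after thinning and 0 with lists of equal length.

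Gained sites also lay at genes of this list that were held in all 8 libraries. Beside TAL1, a partner of GATA2, a gained site lay 6604 bp outside the gene at chr1:47238939-47239938, with folds of 15.04, 15.5, 22.8 and 28.01, and it kept the complete split under both alternatives. Inside ZFPM1 one lay at chr16:88512833-88513683, with folds of 12.1, 10.5, 17.3 and 25.7. The KIT, TAL1 and ZFPM1 sites had a peak in 0 of 4 HA-T354M libraries with the HA antibody. The number of summits at ZFPM1 was 11, 8, 13 and 11 with HA-T354M and 5, 5, 7 and 8 with the empty vector, which touch at 8. At GATA1 it was 4, 2, 4 and 5 with HA-T354M and 3, 2, 4 and 5 with the empty vector, and at LYL1 1 in every library.

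Among 38 other haematopoietic transcription factors, 21 had a peak in any library, 4 differed by 3 libraries or more towards HA-T354M (beside 18.9% of all genes with a peak), and 9 had one in all 8. IKZF1 (Ikaros, a factor of lymphoid and erythroid cells) and MECOM (EVI1, a regulator of blood stem cells) had the complete split. That split was found at 4.29% of all genes with a peak. The IKZF1 site at chr7:50332965-50333805 had folds of 19.9, 17.1, 24.1 and 25.1. IKZF1 was the only gene of the lists that kept the complete split both after thinning and with lists of equal length. The MECOM site at chr3:169510315-169510933 had folds of 15.2, 17.0, 26.7 and 20.9. All 4 anti-GATA2 libraries of HA-GATA2 cells held this site and 0 of the wild-type ones. Elsewhere at the gene, 3 of 4 wild-type libraries had a peak. The MECOM site kept the complete split after thinning and was in 2 of 4 HA-T354M libraries with lists of equal length. With the HA antibody, 0 of 4 HA-T354M libraries had a peak at the IKZF1 or the MECOM site. KLF3 and ID2 stood at 3 of 4 against 0 of 4, with low percentiles of 10.3 and 4.09. ZFPM2, CEBPE, FOXO3 and NFE2 had the highest mean percentiles in the HA-T354M lists among those in all 8. SOX6, a repressor of fetal globin, had a peak in 1 HA-T354M library and in 3 with the empty vector.

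Genes of globin and heme synthesis were held in part without the tagged protein, 9 to 12 of them in each empty-vector library. Of 27 globin and heme synthesis genes 17 had a peak in any library. Of these, 2 differed by 3 or more, beside 18.9% of all genes with a peak, and 8 had one in all 8. Among those 8, the heme enzyme genes FECH, CPOX and PPOX had mean percentiles of 98.7, 98.5 and 95.7 with HA-T354M and 98.2, 96.7 and 94.5 with the empty vector. UROS stood at 4 of 4 HA-T354M against 1 of 4 empty-vector libraries, and ALAD, which makes porphobilinogen, at 3 of 4 against 0 of 4. At UROS the difference was 4 of 4 against 0 of 4 with lists of equal length.

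For the red cell membrane and iron genes the numbers held in the 2 groups overlapped. Of its 38 genes, 30 had a peak in any library and 21 in all 8, and 0 differed by 3 or more libraries, beside 18.9% of all genes. The number of its genes with a peak was 24, 21, 25 and 26 with HA-T354M and 21, 24, 24 and 30 with the empty vector. A single gene, 1 of the 38, had a peak in more HA-T354M libraries and 4 in more empty-vector libraries. The 4 included KEL and SLC11A2, each in empty-vector replicate 4 alone, and ADD1 in 1 of 4 against 2 of 4. CA1 (a carbonic anhydrase), GYPC (glycophorin C), EPB42 and FTH1 (the ferritin heavy chain) had the highest mean percentiles in the HA-T354M lists among the genes in all 8. FTH1 stood at 95.7 there and at 82.0 in the empty-vector lists. RHD and RHCE, and GYPB and GYPE, are near-identical pairs between which reads can be split, so their single values are uncertain.

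Mast cell, basophil and eosinophil genes stood at the other end. Of 28 genes 10 had a peak in any library, all 10 in more HA-T354M than empty-vector libraries, and 8 differed by 3 or more, beside 67.8% and 18.9% of all genes with a peak. Its genes with a peak numbered 10, 4, 9 and 10 with HA-T354M and 1, 0, 0 and 1 with the empty vector. The complete split was found at CPA3 (mast cell carboxypeptidase), IL1RL1 (the interleukin 33 receptor) and ALOX5 (the first enzyme of leukotriene synthesis). Over all genes with a peak its share was 4.29%. CCR3 (the eotaxin receptor), PRG2 (eosinophil major basic protein), LTC4S and TPSG1 stood at 3 of 4 against 0 of 4, and IL13 at 4 of 4 against 1 of 4. In the 3 of 4 genes the library without a peak was replicate 2. The CPA3 site at chr3:148877946-148878558 had folds of 16.3, 11.96, 17.8 and 19.7, and it was held in all 4 HA-GATA2 libraries of the GATA2 antibody and in 0 of the wild-type ones. The IL1RL1 site at chr2:102335538-102336419 had folds of 15.2, 12.7, 20.1 and 22.01 and was held in 4 of 4 wild-type libraries. The CPA3, IL1RL1 and ALOX5 sites had a peak in 0 of 4 HA-T354M libraries with the HA antibody. After thinning CPA3 and ALOX5 kept the complete split, and with lists of equal length 2, 3 and 0 of 4 HA-T354M libraries held CPA3, IL1RL1 and ALOX5 and 0 of 4 empty-vector libraries any of them.

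Housekeeping genes stood on the same side as the mast cell genes. Of 25 such genes 8 had a peak in any library, all 8 in more HA-T354M libraries (beside 67.8% of all genes with a peak), and GAPDH, YWHAZ and CHMP2A were among those at 3 of 4 against 0 of 4. The number with a peak was 6, 0, 6 and 6 with HA-T354M and 0 in each empty-vector library. None of the 25 had a complete split. With lists of equal length 0 of 4 libraries of either group held a peak at any of these 3 genes. The part of such signal in the gains at other genes was not tested.

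Innate immune genes had a peak in any library at 7 of 34. Of the 7, 4 differed by 3 or more, beside 18.9% of all genes with a peak. MYD88, the adaptor of Toll-like receptors, and CGAS, the sensor of cytosolic DNA, had the complete split. That split was found at 4.29% of all genes with a peak. TNFAIP3 stood at 4 of 4 against 1 of 4 and MAVS at 3 of 4 against 0 of 4. The sites counted for MYD88 and CGAS lay 8005 and 7218 bp outside the gene, at chr3:38151027-38152230 and chr6:73459515-73460249, where other genes are also near. The MYD88 site had folds of 16.8, 12.3, 21.1 and 17.7 and a peak in 1 of 4 wild-type libraries. The CGAS site was weaker, with folds of 6.67, 5.10, 7.62 and 6.84, and its nearest gene was MTO1, 1855 bp away. After thinning 2 of 4 HA-T354M libraries kept the CGAS site, and with lists of equal length 0 did. With the HA antibody, 0 of 4 HA-T354M libraries had a peak at the MYD88 or the CGAS site. A second gained site of the TNFAIP3 region lay inside the gene at chr6:137866227-137867265, with folds of 4.65, 14.6, 6.71 and 21.6.

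Of 32 cytokine receptor and signalling genes 18 had a peak in any library, 14 of them in more HA-T354M libraries, a share near the 67.8% of all genes. Here FLT3, the receptor of early progenitors, and TGFBR1 had the complete split, beside 4.29% of all genes with a peak. The FLT3 site at chr13:28093754-28094757 had folds of 14.2, 13.1, 10.4 and 16.0 and the TGFBR1 site at chr9:99113269-99113894 17.3, 13.1, 13.0 and 17.1. Both were in 3 of 4 wild-type libraries and in 3 of 4 HA-T354M libraries after thinning, and with lists of equal length FLT3 was in 1 and TGFBR1 in 2 of the 4. With the HA antibody, 1 of 4 HA-T354M libraries held the FLT3 site and 0 of 4 the TGFBR1 site. INPP5D (the phosphatase SHIP1) and JAK1 had a peak in all 8. EPOR, the erythropoietin receptor, had one in 0 HA-T354M libraries and in 1 with the empty vector, against 4 of 4 wild-type libraries. Of 22 genes of erythroid nuclear and mitochondrial clearance 11 had a peak in any library. XPO7, E2F1 and CCND3 had one in all 8 and the autophagy adaptor SQSTM1 in 3 of 4 against 0 of 4.

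Markers of other cell types were mostly without a peak. Of the 26 genes of each list, 22 megakaryocyte and platelet genes, 25 neutrophil and monocyte genes, 24 lymphocyte genes and 22 genes of unrelated tissues had none in any of the 8 libraries. ITGA2B, the platelet integrin, had a peak in 0 HA-T354M libraries and 2 with the empty vector. LTF, the neutrophil protein lactoferrin, had one in all 8 and also a gained site 3217 bp outside the gene at chr3:46431856-46432428. RAG1, the lymphocyte recombinase, had a peak in 3 of 4 against 0 of 4. GAD1 and VIL1, of brain and gut, had one in all 8.

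The number of summits at a gene did not overlap between the groups at 289 genes (5.88%) with more in HA-T354M and at 1 (0.0203%) with more in the empty vector. ZFPM2 had 7, 5, 8 and 9 summits with HA-T354M and 1, 1, 1 and 4 with the empty vector. CHST11, a chondroitin sulfotransferase gene, had 4, 4, 6 and 7 with HA-T354M and 1, 1, 1 and 2 with the empty vector. MTSS1 had 9, 9, 10 and 11 with HA-T354M and 5, 6, 6 and 7 with the empty vector. CFDP1, STON2, AGPAT5, CACNA1H, CRIM1, TANC1 and GCSAML followed, and CFDP1 and CACNA1H had no summit in any empty-vector library. GCSAML, a gene with 3 gained sites, had 5, 4, 4 and 4 summits with HA-T354M and 1, 0, 1 and 1 with the empty vector. Another 11 genes held 2 gained sites each. Among them MTO1, RIC8B, SEC14L2 and TMEM233 had 2 to 4 summits in every HA-T354M library and 0 in every empty-vector library. The site counted for CGAS above is among those of MTO1. AHI1, the neighbour of MYB, had 4 in each HA-T354M library and 2 in each empty-vector library, and AFF1, AOPEP, CRIM1, MCPH1, TRIQK and ZFPM2 made up the rest.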

How the data were processed

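CUT&Tag libraries were deposited as 1 narrowPeak list each, not pooled. MACS2 2.2.7.1, Bowtie2 2.2.5, deepTools 3.5.3, cutadapt 3.3 and FastQC are named in the submitters' processing notes, as is build hg38, and the sources used here give neither the role nor the settings of any of them. For each peak the authors deposited a linear fold ratio over the local background, p and q as −log10 values, and a score of 10 times the −log10 q. These values are the authors' own. They ranked peaks inside each list and gave the depth. Groups and replicate numbers came from the titles. The 8 IgG libraries have no list used here.

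Peaks on chromosomes 1 to 22 and X of all 28 libraries were merged into sites (overlap of at least 1 bp). Single values were tested by exact two-sided permutation (70 splits, Benjamini-Hochberg over 8 values, peak numbers as log2 of the number plus 1), sites and genes by Fisher's exact test on libraries, adjusted over every site or gene present in any of the 8. Since the caller compares whole fragments with a Poisson expectation, both were recovered from fold and −log10 p (match within 0.03% for at least 99.87% of the peaks of a library), and the lowest background divided by the caller's scaling estimates depth. Thinning drew fragments at random to the lowest estimate, with a −log10 p of at least 9.68, the highest of the lists' minima. The recovery and the tests were tested on simulated data. Python 3.11.15, SciPy 1.17.1 and pandas 2.3.3 were used.

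Genes came from a RefSeq table of GRCh38.p14 without exons or strand. Distances run from a site's midpoint to the gene body. Those given as bp outside a gene of the lists run from the site's nearer edge. Of the 365 genes of 13 lists 364 were found. The members, lists and rules were chosen with earlier results of these data known. The text names the 20 gained and 10 constant sites with the highest mean percentile, every site seen only with the empty vector, list genes that differ by 3 or more libraries and up to 4 per list in all 8, the 10 genes with the largest non-overlapping difference in summits per direction, and genes with at least 2 gained sites. Some genes that these rules pick are not reported here. Other named genes were chosen after their values were seen. Replicate numbers are shared between the groups, and the titles do not say whether same-numbered libraries were handled together. They were treated as unpaired.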

Additional observations from a re-analysis of the deposited data

How the results depend on the processing

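Thinning to a common background left 239 sites and 103 genes with a complete split towards HA-T354M and 8 sites and 6 genes towards the empty vector, and turned the differences for gene ends (-0.217 percentage points) and for peaks over 50 kb from a gene (0.504). With lists of equal length the splits were 159 sites and 73 genes against 56 sites and 46 genes. At that length the differences for gene ends (-2.81 points) and for peaks inside genes (0.233) turned. Also at that length, -0.384 for wild-type sites and 2.15 for peaks over 50 kb away, both turned, and 6.90 for HA-T354M anti-HA sites, 3.81 for HA-GATA2 anti-HA sites and -0.482 for own sites seen in wild-type cells passed the adjusted exact permutation test at 0.0400, over 7 values because the peak number is then fixed. A −log10 q of at least 15 left 0 sites and 0 genes towards the empty vector. Within 1000 bp of a gene end, 21 genes stood towards HA-T354M and 0 towards the empty vector. The causes of these changes were not tested, except that shorter lists hold fewer sites.

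Leaving out 1 library at a time gave 452 to 1068 sites and 214 to 687 genes towards HA-T354M (the highest without HA-T354M replicate 2) and 3 to 9 sites and 1 to 5 genes towards the empty vector (the highest without empty-vector replicate 1). The peak ratio was then 1.78 to 2.34, and no single value changed direction; that design allows an exact permutation p of 0.0286, and the smallest adjusted one was 0.0571. With the replicate block an exact sign-change permutation gave p = 0.125, the smallest it allows, for the peak ratio of 1.98. For sites and genes the smallest p of the exact binomial test with the block was also 0.125. No site or gene could therefore be called with it. The deviations of same-numbered libraries from their group means correlated at -0.0316 to 0.00902, and the block was not used. Such values cannot show that the libraries were unpaired. Of 194 results under alternatives 162 stayed the same, which for single values means the same direction and side of the threshold. For counts of sites and genes it means only an equal or similar number. The 162 include outcomes that were fixed or nearly so and do not measure stability. Among these are the numbers of sites and genes that passed, 0 in every setting. The single values under the replicate block, where none could pass, are also among them. Read totals are unknown, and a site without a peak can still be bound.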
